A study of Mus musculus with 12 samples.

Results

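The ERK negative feedback genes are 10 genes that dampen or read out signalling through the kinase ERK, and they were followed through the treatment of mouse pre-iPSCs with AA, 2i or both. They were chosen by name, with no measured value in the rule: the MAP kinase phosphatase genes Dusp4, Dusp5 and Dusp6, the Sprouty genes Spry1, Spry2 and Spry4, the Spred genes Spred1 and Spred2, and the transcription factor genes Etv4 and Etv5. Earlier results of these data were known when the genes were chosen. All 10 were among the 20325 genes measured, and all 10 were among the 13400 that had enough counts to be tested. Pre-iPSCs are cells stalled late in reprogramming, here a clonal line that had been derived from fibroblasts with retroviral Oct4, Sox2, c-Myc and Klf4, so that the libraries describe 1 line and not a range of lines. The cells were taken off their feeder layer and treated for 48 h in embryonic stem cell medium with the solvent DMSO, with AA (ascorbic acid, 50 µg/ml), with 2i (a MEK inhibitor at 1 µM together with a GSK inhibitor at 3 µM) or with AA+2i. Each condition had 3 biological replicates, A, B and C, which makes 12 RNA libraries. Every 2i sample received both inhibitors, so the MEK and the GSK inhibitor cannot be told apart in any comparison.

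ERK is the last kinase of a cascade that carries growth factor signals from receptors through RAS, RAF and MEK into the nucleus. Active ERK switches on genes whose products act back on the same cascade: the Dusp phosphatases take phosphates off ERK, while Sprouty and Spred proteins act further up, around RAS and RAF. Etv4 and Etv5 are ETS family transcription factors whose transcripts follow FGF and ERK signalling, and they stand for the output of the pathway. In mouse embryonic stem cells ERK signalling favours exit from self-renewal, and a blocker of MEK, the kinase that activates ERK, combined with a GSK inhibitor is used to hold the cells in the undifferentiated state.

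In the mm9 genome, Dusp4 is at chr8:35870351-35882948, Dusp5 at chr19:53603599-53616921, Dusp6 at chr10:98725865-98730122, Spry1 at chr3:37538869-37543520 and Spred1 at chr2:116947110-117008015, all on the plus strand. Spred2 is at chr11:19824378-19924029 on the plus strand, and Etv4 lies on the same chromosome at chr11:101631056-101646685 on the minus strand. Spry2 is at chr14:106291166-106296036 and Etv5 at chr16:22381382-22439792, both on the minus strand. RefSeq start sites (GRCm38.p6, a later build than mm9) were given for 7 of the 10 genes, and not for Dusp4, Spry4 and Etv4. The 250 bases before each start site were searched on both strands. The letters sought were CCGGAA (ETS factors), TGANTCA (AP-1), TGACGTCA (CRE), CTTTGAT (TCF/LEF) and CACGTG (E-box), together with the CArG box of SRF. The upstream sequences of Dusp6, the gene that fell most with 2i, and of Dusp5, the gene that passed in no comparison with 2i, are shown with the CArG boxes in capitals. They are chr10:99262981-99263230 and chr19:53528895-53529144, both on the plus strand.
Dusp6: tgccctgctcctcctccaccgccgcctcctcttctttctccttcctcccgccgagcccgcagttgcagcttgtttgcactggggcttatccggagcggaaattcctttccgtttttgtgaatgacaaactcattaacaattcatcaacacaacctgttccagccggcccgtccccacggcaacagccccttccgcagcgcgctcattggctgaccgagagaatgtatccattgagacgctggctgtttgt
Dusp5: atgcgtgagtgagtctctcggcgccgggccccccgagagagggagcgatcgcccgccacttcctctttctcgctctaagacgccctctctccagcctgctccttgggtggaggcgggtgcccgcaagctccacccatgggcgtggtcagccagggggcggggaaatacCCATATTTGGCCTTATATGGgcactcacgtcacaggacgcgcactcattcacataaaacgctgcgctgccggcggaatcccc
The capitals in Dusp5 are 2 CArG boxes that adjoin each other and begin 82 and 72 bases before the start site. No other motif was found in the upstream sequences of the 7 genes. A CArG box was present in 1.47% of the 32851 mouse promoters of the same length, the ETS letters in 12.03%, AP-1 in 6.75%, E-box in 6.02%, TCF/LEF in 3.21% and CRE in 1.55%. These are matches of letters within a short window, and binding was not measured.

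The 12 libraries held between 16173322 and 54392719 expected counts (median 21854761), with DMSO B and AA B the deepest. The summed level of 7 markers of epithelial and embryonic stem cell like cells was 2022 to 9955 TPM in DMSO, 2195 to 4844 in AA, 3111 to 3829 in 2i and 3333 to 3713 in AA+2i, with Pou5f1, which the reprogramming vector also encodes, making most of it and Fut4 near 0. Fibroblast and feeder markers (9 genes) summed to between 3.48 and 18.9 TPM in all libraries, with Lum at 0 in every group and Twist2 at 0 in both groups with 2i, and primitive endoderm markers (5 genes) to at most 0.73 TPM. Genes of the iPSC state (5 genes, led by Dppa5a) summed to 41.3 to 89.5 TPM in DMSO, 26.9 to 34.0 in 2i, 1264 to 1703 in AA and 557 to 814 in AA+2i. Libraries also differed in how counts depended on GC content: at 65% GC the fitted deviation from the mean library was -2.06 (log2) in DMSO A, -1.90 in AA A and 1.74 in AA+2i C. The transcripts of the feedback genes ranged from 41.8% GC (Spred1) to 58.7% GC (Etv4), with a median of 51.7% against 51.0% over the tested genes. In bulk RNA, a fall in the number of cells that express a gene and a fall in the RNA of each cell cannot be told apart.

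Before any inhibitor the feedback genes covered a wide range of expression, given here as TPM, which is corrected for transcript length. With DMSO, Etv5 was the highest at 314 ± 16.2 TPM (SD, n = 3), and its range lay above that of all the others. Spred1 (104 ± 47.9) and Spry2 (90.4 ± 13.8) came next and overlapped each other. Dusp6 (62.5 ± 8.65), Spry4 (57.8 ± 2.13), Spred2 (55.2 ± 4.53), Etv4 (48.9 ± 24.7) and Dusp4 (32.1 ± 4.93) formed a run in which each neighbour overlapped the next. Dusp5 (11.3 ± 7.89) and Spry1 (4.78 ± 1.36) were the lowest, and their ranges overlapped. The order changed with 2i: Dusp6 moved from the fourth place to the ninth, where its range (6.68 to 7.14 TPM) lay within that of Dusp5 (4.96 to 16.7 TPM), below those of the other genes above it and above that of Spry1. Summed over the 10 genes, the level was 781 ± 31.96 TPM in DMSO, 846 ± 70.7 in AA, 384 ± 48.8 in 2i and 387 ± 75.6 in AA+2i. Etv5 alone supplied 40.3% of the sum with DMSO and 50.3% with 2i.

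**Figure D1:**
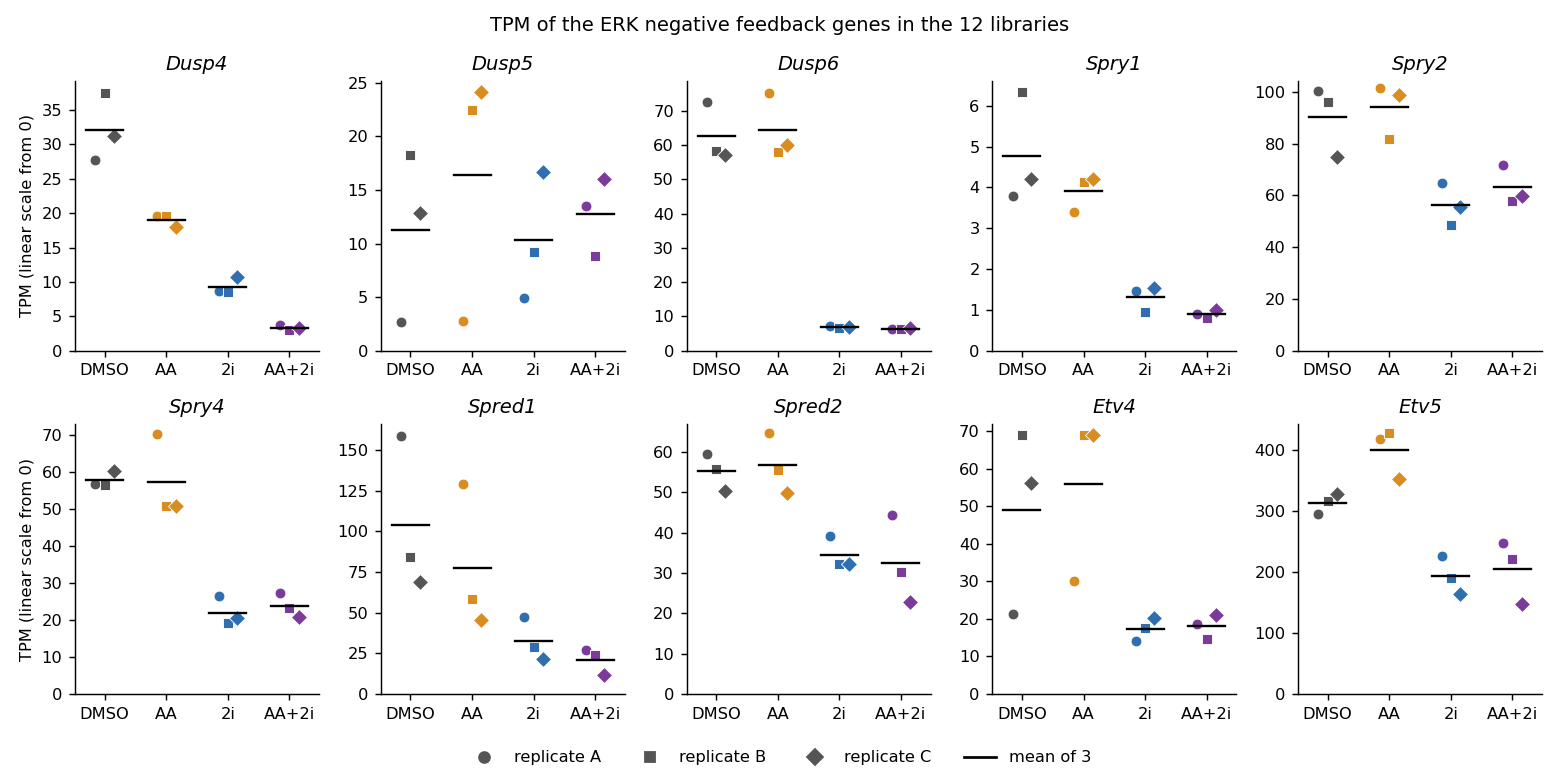
TPM of each feedback gene (vertical axis, linear from 0, a separate scale for each gene) in the 12 libraries by condition. Symbols mark replicates A, B and C and the bar is the mean of 3. For 8 genes, all but Dusp5 and Spred1, every library with 2i lies below every library without it.

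The first question was what the inhibitors did to the feedback genes, and it was asked in pairs of conditions that have no library in common, 2i against DMSO and AA+2i against AA. In 2i against DMSO, 4 of the 10 genes fell (edgeR, adjusted p under 0.05), namely Dusp6, Dusp4, Spry1 and Spry4, and none rose. Over all tested genes 2.83% fell and 1.59% rose in that comparison. In AA+2i against AA, 5 of the 10 fell, the same 4 and Etv5, while 3.29% of all tested genes fell and 2.81% rose. Both comparisons were made in 1 model of all 12 libraries, so they share its estimate of spread. Fitted on only the groups compared, Dusp4, Dusp6 and Spry4 passed in 2i against DMSO (1.40% of all tested genes). Dusp4, Dusp6, Spry1 and Spry4 passed in AA+2i against AA (3.34%). When both changes were averaged in 1 contrast, which uses the same libraries again, 9 of the 10 fell, Dusp5 being the exception, against 7.87% of all tested genes that fell and 5.40% that rose. On the TPM scale, tested with limma on log2(TPM + 1), more of the whole table went down: 272 genes rose and 542 fell in AA+2i against AA (376 and 441 by edgeR), 479 rose and 1341 fell in the averaged contrast (724 and 1054), and 404 rose and 710 fell in AA+2i against DMSO (526 and 591). The same feedback genes passed as with edgeR in all 3. The median log2 fold change of the 10 genes was -1.24 in 2i against DMSO and -1.27 in AA+2i against AA, while the median over all tested genes was -0.02 and -0.01. In TPM, the 3 libraries with 2i lay below the 3 libraries without it for 9 of the 10 genes in each of the comparisons, as they did for 14.7% of all tested genes in 2i against DMSO and for 16.8% in AA+2i against AA. Across all 12 libraries the 6 with 2i lay below the 6 without it for 8 of the 10 genes (5.64% of all tested genes), Dusp5 and Spred1 being those that overlapped.

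Leaving out a replicate letter, which takes away 4 of the 12 libraries, kept the direction of the 9 genes other than Dusp5 but not their calls. Without replicate B (which held the deepest DMSO and AA libraries) no feedback gene passed in 2i against DMSO, and 0.00746% of all tested genes did. Without replicate C only Dusp6 passed (0.388% of all tested genes), and without replicate A Dusp4, Dusp6, Spry4 and Etv4 did (2.03%). In the averaged contrast Dusp4, Dusp6, Spry1 and Spry4 passed whichever replicate was left out, when 9.95%, 1.97% and 5.21% of all tested genes passed without A, B and C. In AA+2i against AA, Dusp6 was the gene that passed whichever replicate was left out (when 3.94%, 0.0522% and 1.19% of all tested genes passed).

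Dusp6 encodes a cytoplasmic phosphatase that acts on ERK. It stood at 72.5, 58.1 and 56.9 TPM in DMSO A, B and C and at 75.2, 58.0 and 59.9 TPM in AA. With 2i it was at 7.14, 6.68 and 6.85 TPM, and with AA+2i at 6.22, 6.19 and 6.63 TPM. The libraries with and without 2i were separated by a wide gap, and the 2i mean was 11.02% of the DMSO mean. The log2 fold change was -3.00 (SE 0.21, adjusted p = 4.63e-05) in 2i against DMSO and -3.15 (SE 0.21, adjusted p = 5.01e-05) in AA+2i against AA. Averaged over AA it was -3.08 (SE 0.15, adjusted p = 1.43e-06), which placed Dusp6 at rank 3 of the 13400 genes by p-value.

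Dusp4 encodes a nuclear phosphatase that acts on ERK and other MAP kinases. Its TPM was 27.8, 37.5 and 31.2 in DMSO A, B and C, 19.6, 19.6 and 18.0 in AA, 8.69, 8.53 and 10.7 in 2i and 3.78, 3.02 and 3.26 in AA+2i. The ranges of the 4 conditions did not overlap, and their order from high to low was DMSO, AA, 2i and AA+2i. With 2i it fell by 1.58 on the log2 scale (SE 0.20, adjusted p = 0.00184), and with 2i on top of AA by 2.32 (SE 0.21, adjusted p = 0.000224). AA+2i left 10.4% of the DMSO mean, about the share that Dusp6 kept with AA+2i (10.2%).

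Dusp5 encodes a nuclear phosphatase specific for ERK, and it passed in no comparison with 2i. Its TPM was 2.72, 18.3 and 12.8 in DMSO A, B and C, 2.78, 22.4 and 24.1 in AA, 4.96, 9.22 and 16.7 in 2i and 13.5, 8.80 and 16.01 in AA+2i. The lowest values were in the replicate A libraries of DMSO, AA and 2i, and the conditions overlapped. Its log2 fold change was 0.13 (SE 0.79, adjusted p = 0.943) in 2i against DMSO and -0.19 (SE 0.79, adjusted p = 0.912) in AA+2i against AA, and the sign of both turned under other settings. The 95% interval of the averaged change ran from -1.32 to 1.26, which leaves room for a change of either direction. It covers the averaged changes of Spry2, Spred2, Etv5 and Spry4, the last at -1.15. Dusp5 transcripts are 56.7% GC, and the 2 libraries with its lowest values, DMSO A and AA A, were those with the lowest fitted deviation at 65% GC; the part of GC content in these values was not tested.

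The Sprouty genes encode inhibitors that are recruited to the cell membrane and act between the receptor and RAF. Spry1 was at 3.79, 6.33 and 4.21 TPM in DMSO A, B and C, 3.40, 4.13 and 4.21 in AA, 1.47, 0.96 and 1.53 in 2i and 0.91, 0.80 and 0.99 in AA+2i. All values with 2i were below all values without it, at a level where a library held between 23 and 350 counts. Spry1 changed on the log2 scale by -1.65 (SE 0.28, adjusted p = 0.00795) in 2i against DMSO and -1.93 (SE 0.29, adjusted p = 0.0028) in AA+2i against AA. Fitted on the 6 libraries of DMSO and 2i alone it was -1.64 with an adjusted p of 0.07.

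Spry4 was far more abundant, at 56.7, 56.5 and 60.3 TPM in DMSO A, B and C and at 70.3, 50.8 and 50.8 TPM in AA. It was at 26.3, 19.0 and 20.6 TPM in 2i and at 27.3, 23.3 and 20.9 TPM in AA+2i, again without overlap between libraries with and without 2i. Its log2 fold change was -1.22 (SE 0.18, adjusted p = 0.00372) and -1.08 (SE 0.18, adjusted p = 0.00541) in 2i against DMSO and in AA+2i against AA.

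Spry2, the most abundant of the Sprouty genes, moved less. It was at 100.4, 96.1 and 74.7 TPM in DMSO A, B and C, 101.5, 81.6 and 98.8 in AA, 64.6, 48.5 and 55.4 in 2i and 71.8, 57.9 and 59.8 in AA+2i. The libraries with 2i were below those without, but neither single comparison passed: the log2 fold change was -0.50 (SE 0.18, adjusted p = 0.185) in 2i against DMSO and -0.39 (SE 0.18, adjusted p = 0.31) in AA+2i against AA. The averaged change was -0.45 (SE 0.13, adjusted p = 0.0439). After correction for GC content it was -0.27 with an adjusted p of 0.214, and with no filter on low counts the adjusted p was 0.0606.

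Spred1 and Spred2 encode relatives of the Sproutys that hold the RAS regulator neurofibromin at the membrane. Spred1 was at 158, 84.2 and 68.7 TPM in DMSO A, B and C, 129, 58.0 and 45.2 in AA, 47.0, 28.6 and 21.2 in 2i and 26.8, 24.1 and 11.4 in AA+2i. Replicate A was the highest and C the lowest in every condition, so that 2i A (47.0 TPM) lay above AA C (45.2 TPM) while each comparison on its own had no overlap. Spred1 has the lowest GC content of the 10, and at 35% GC the fitted deviation was 0.81 (log2) in DMSO A and 0.85 in AA A, the highest of the 12 libraries. The part of GC content in the order of the replicates was not tested. On the log2 scale the change of Spred1 was -1.54 (SE 0.46, adjusted p = 0.0969) in 2i against DMSO and -1.73 (SE 0.47, adjusted p = 0.0527) in AA+2i against AA, and the averaged change was -1.63 (SE 0.33, adjusted p = 0.0069). With GC correction the change in 2i against DMSO was -1.15 with an adjusted p of 0.0016.

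Spred2 was at 59.4, 55.9 and 50.4 TPM in DMSO A, B and C, 64.8, 55.6 and 49.9 in AA, 39.1, 32.3 and 32.1 in 2i and 44.4, 30.2 and 22.7 in AA+2i. Libraries with 2i did not reach the level of those without it. The log2 fold change was -0.50 (SE 0.21, adjusted p = 0.25) in 2i against DMSO and -0.64 (SE 0.21, adjusted p = 0.107) in AA+2i against AA, and -0.57 (SE 0.15, adjusted p = 0.0247) when averaged.

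Etv4 and Etv5 encode closely related ETS transcription factors. Etv5 had the highest level of the 10 genes in every condition, at 296, 317 and 328 TPM in DMSO A, B and C, 418, 429 and 354 in AA, 226, 190 and 164 in 2i and 248, 221 and 147 in AA+2i. Its log2 fold change was -0.52 (SE 0.19, adjusted p = 0.172) in 2i against DMSO and -0.80 (SE 0.19, adjusted p = 0.0279) in AA+2i against AA. Fitted on the libraries of AA and AA+2i alone, the latter had an adjusted p of 0.0972, and it did not pass whichever replicate was left out (adjusted p = 0.0618, 0.454 and 0.281 without A, B and C; edgeR). In TPM the difference between the means was larger for Etv5 than for the other 9 genes, 314 in DMSO against 194 in 2i, although its relative change was among the smallest.

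Etv4 was at 21.4, 69.1 and 56.3 TPM in DMSO A, B and C, 30.1, 69.0 and 69.1 in AA, 14.2, 17.7 and 20.4 in 2i and 18.6, 14.6 and 21.0 in AA+2i. DMSO A and AA A were the low libraries among those without 2i, and they were also the low libraries for Dusp5 and at high GC content. The part of GC content in these Etv4 values was not tested. On the log2 scale the change of Etv4 was -1.26 (SE 0.44, adjusted p = 0.158) in 2i against DMSO and -1.45 (SE 0.44, adjusted p = 0.0865) in AA+2i against AA, and the averaged change was -1.36 (SE 0.31, adjusted p = 0.0144). With GC correction the change in 2i against DMSO was -1.72 with an adjusted p of 0.00011, and without replicate A it was -1.44 with an adjusted p of 0.0414.

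**Figure D2:**
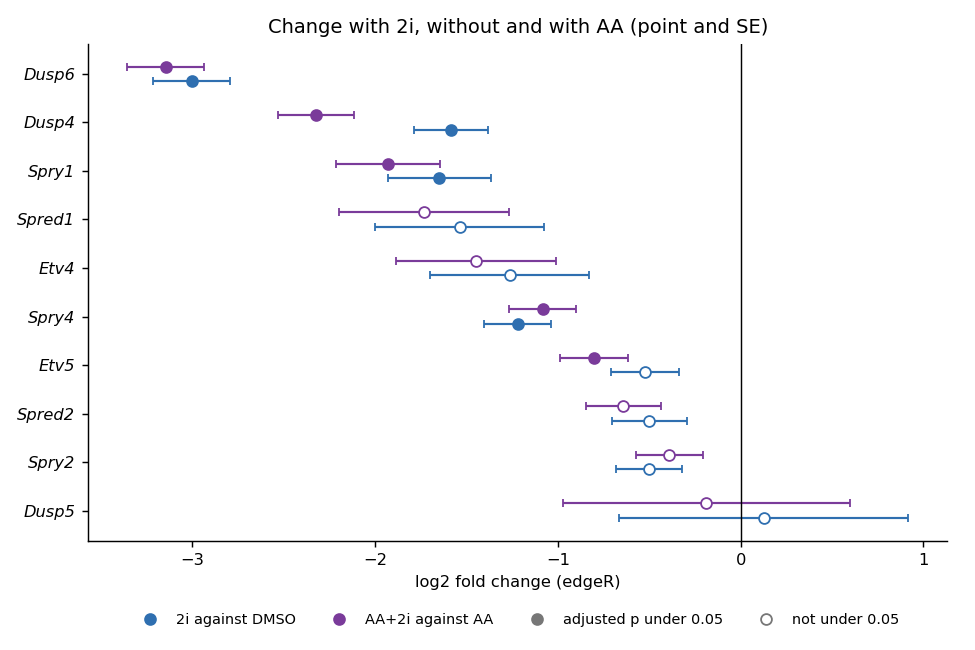
Log2 fold change of each feedback gene (horizontal axis; edgeR) with 2i, in cells without AA (blue, 2i against DMSO) and with AA (purple, AA+2i against AA), with bars of 1 SE. Filled points had an adjusted p under 0.05, which 4 genes reached without AA and 5 with it. Dusp6 lies near -3 in both, and Dusp5 lies near 0 with wide bars.

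The size of the fall was compared between genes that stood next to each other in the order of the averaged change (9 pairs). Dusp6 fell by more than Dusp4, with a difference between their log2 changes of -1.11 (two-sided exact permutation test of the 2i label within the libraries without and with AA, p = 0.005, Benjamini-Hochberg adjusted p = 0.045). Spry4 fell by more than Etv5, with a difference of -0.48 (exact permutation p = 0.01, adjusted p = 0.045). The smallest p that the 400 permutations can give is 0.005. The other 7 pairs had adjusted exact permutation p-values between 0.51 and 0.81, so the order within each of these pairs was not resolved. Genes further apart in the order were not compared by this test.

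AA+2i against DMSO, which shares its libraries with the comparisons above, gave 5 genes that fell (Dusp4, Dusp6, Spry1, Spry4 and Spred1) against 4.41% of all tested genes. The 3 AA+2i libraries lay below the 3 DMSO libraries in TPM for 9 of the 10 (22.5% of all tested genes). In this comparison the log2 fold change was -3.04 for Dusp4 (SE 0.21, adjusted p = 3.74e-05), -3.09 for Dusp6 (SE 0.21, adjusted p = 3.52e-05), -2.16 for Spry1 (SE 0.29, adjusted p = 0.00126), -2.17 for Spred1 (SE 0.47, adjusted p = 0.017) and -1.08 for Spry4 (SE 0.18, adjusted p = 0.00456). Etv5, at -0.43 (SE 0.19, adjusted p = 0.183), did not pass.

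The second question was whether AA, which acts as a cofactor of demethylating enzymes, moved the same genes. In AA against DMSO none of the 10 passed by edgeR without the replicate letter in the model, and 1 of the 10 had an unadjusted p under 0.05. Dusp4 passed by DESeq2, as did 3.39% of all tested genes. It also passed by edgeR with the replicate letter in the model (adjusted p = 0.0457, 4.43% of all tested genes). Over all tested genes 1.34% passed by edgeR without the letter and 9.43% had an unadjusted p under 0.05. The median log2 fold change of the 10 genes was 0.06. Dusp6 was at 0.05 (95% interval -0.39 to 0.50) and Spry4 at -0.00 (95% interval -0.41 to 0.41). Dusp4 was at -0.72 (SE 0.20, adjusted p = 0.142) with its 3 AA libraries below the 3 DMSO libraries, and Etv5 was at 0.37 (SE 0.19, adjusted p = 0.624) with its 3 AA libraries above. Such separation was seen for 4.13% of all tested genes below and for 5.36% above.

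When AA was added on top of 2i, 1 of the 10 genes passed, against 0.149% of all tested genes that fell and 0.761% that rose. That gene was Dusp4, at -1.46 (SE 0.20, adjusted p = 0.00729), going from 9.31 ± 1.22 TPM in 2i to 3.35 ± 0.389 TPM in AA+2i (SD, n = 3). The call was lost when any 1 replicate was left out, with edgeR adjusted p-values of 0.0642, 0.647 and 0.237 without A, B and C. Of all tested genes 0.0896% passed without A, and none passed without B or without C. The log2 fold change of Dusp4 stayed between -1.64 and -1.24 in all the alternatives tried. The TPM ranges of 2i and AA+2i were apart for Dusp4 and for Dusp6 (6.35% of all tested genes were below in this way), but the change of Dusp6 was -0.09 (SE 0.20, adjusted p = 0.969). A contrast that averages both AA comparisons, chosen after the Dusp4 values were seen, gave Dusp4 a log2 fold change of -1.09 (SE 0.14, adjusted p = 0.00193). In that contrast 1.41% of all tested genes fell, and Dusp4 was the only feedback gene to do so. Without replicate B its adjusted p was 0.218 and without replicate C 0.0853, when 0.0149% and 0.806% of all tested genes passed. The AA groups were also those with the high levels of iPSC state genes given above, and the part of that difference in the Dusp4 result was not tested.

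Whether the change with 2i differed between cells with and without AA was tested as an interaction. None of the 10 genes passed by edgeR or DESeq2, and 1 had an unadjusted p under 0.05 by edgeR. Over all tested genes 0.0149% passed and 2.31% had an unadjusted p under 0.05. Dusp4 had an interaction of -0.74 (SE 0.28, adjusted p = 1) and Dusp6 of -0.14 (SE 0.28, adjusted p = 1).

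**Figure D3:**
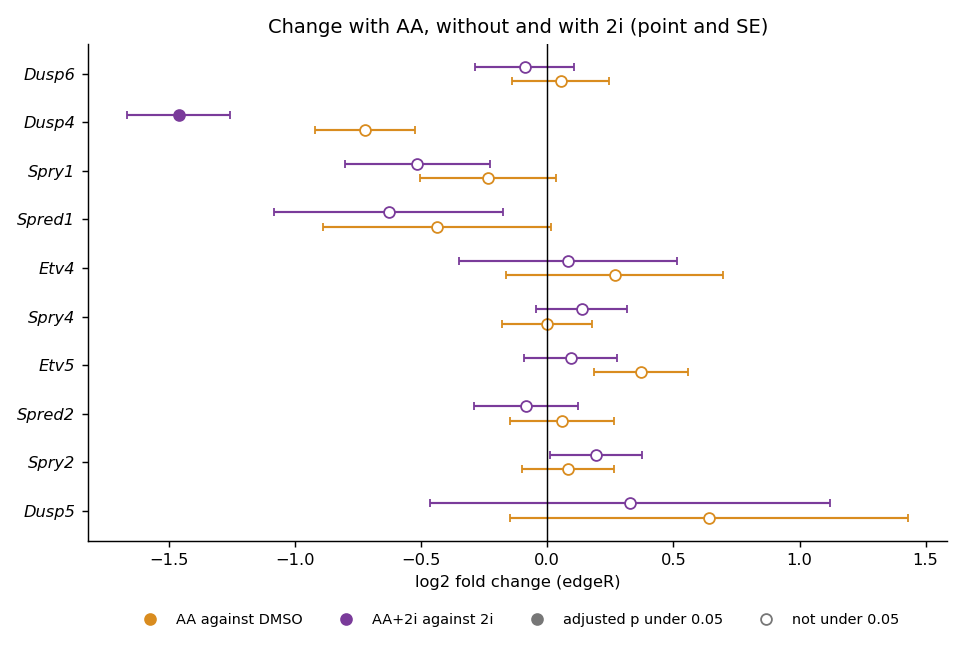
Log2 fold change of each feedback gene (horizontal axis; edgeR) with AA, in cells without 2i (orange, AA against DMSO) and with 2i (purple, AA+2i against 2i), with bars of 1 SE. Dusp4 in AA+2i against 2i is the only filled point (adjusted p under 0.05), at -1.46, and Dusp4 in AA against DMSO is an open point at -0.72.

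The feedback genes were set beside other genes of the pathway from fixed lists, again for the averaged change with 2i. In that contrast 7.87% of all tested genes fell and 5.40% rose by edgeR, and 3652 of 13400 had an unadjusted p under 0.05. Of 9 tested relatives from the same families (11 listed), 2 fell and none rose by edgeR, with 1 above at an unadjusted p under 0.05 and 1 that rose by DESeq2 (Dusp8). Those that fell were Etv1, the third member of the PEA3 group of ETS factors, from 44.0 ± 13.9 TPM in DMSO to 10.9 ± 4.01 in 2i (averaged log2 fold change -1.90, SE 0.27, adjusted p = 0.000878), and the phosphatase gene Dusp14 (-0.62, SE 0.12, adjusted p = 0.00706). The median of the 9 was 0.40, against -1.25 for the 10 feedback genes and -0.02 for all tested genes. Single comparisons gave none up and 1 down, Etv1, in each.

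Of 13 tested genes that are other outputs or modulators of ERK signalling (14 listed), 2 rose and 2 fell. The ephrin receptor gene Epha4 (1.92, SE 0.18, adjusted p = 6.6e-05) and Il17rd, which encodes the FGF inhibitor Sef (0.55, SE 0.13, adjusted p = 0.0191), rose. Errfi1, which encodes an inhibitor of the EGF receptor (-0.74, SE 0.15, adjusted p = 0.00834), and the cyclin gene Ccnd1 (-0.68, SE 0.11, adjusted p = 0.00264) fell. In 2i against DMSO the list had 1 up and none down, and in AA+2i against AA 1 up and 2 down. Egr1, an immediate early gene and a common readout of ERK that is named here after its values were seen, was at 70.7 ± 42.7 TPM in DMSO, 29.6 ± 3.87 in AA, 1.75 ± 1.34 in 2i and 22.6 ± 28.6 in AA+2i. Its averaged change was -2.57 (SE 0.88, adjusted p = 0.0804), and it was -5.05 (SE 1.39, adjusted p = 0.0703) in 2i against DMSO but -0.09 (SE 1.16, adjusted p = 0.973) in AA+2i against AA, with replicates that differed widely in DMSO and in AA+2i. DESeq2 and limma did call the fall of Egr1 in 2i against DMSO.

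The 22 tested genes of the cascade (23 listed) ran from RAS to the ERK kinases, with adaptors, RAS regulators and kinases downstream of ERK. None of them passed in 2i against DMSO, in AA+2i against AA or in the averaged contrast, by edgeR or by DESeq2. At an unadjusted p under 0.05, edgeR counted 2 of them below in the averaged contrast and none in the single comparisons, and DESeq2 counted 1 above and 2 below in the averaged contrast. Among all 13400 tested genes, 3652 had such a p in the averaged contrast by edgeR and 4027 by DESeq2. Mapk3, which encodes an ERK kinase, was at 0.10 on the log2 scale (SE 0.24, adjusted p = 0.79) in the averaged contrast. Receptor genes that signal to ERK were mixed: 1 of 11 tested (12 listed) rose and 3 fell in the averaged contrast. Kit, the receptor for stem cell factor, was the gene that rose (1.10, SE 0.14, adjusted p = 0.000376). Igf1r (-1.45, SE 0.27, adjusted p = 0.00422), Egfr (-1.42, SE 0.30, adjusted p = 0.00874) and Pdgfra (-1.26, SE 0.38, adjusted p = 0.0491) fell, the last at 0.193 TPM in DMSO. Single comparisons gave 1 down in 2i against DMSO and 1 up and 1 down in AA+2i against AA.

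Inhibition of GSK stabilises beta-catenin, and a list of genes known as targets and feedback regulators of Wnt and beta-catenin signalling was therefore followed beside the ERK lists. Of 8 tested, 6 rose and none fell in the averaged contrast (none at an unadjusted p under 0.05 either, by edgeR or DESeq2), with 3 up in 2i against DMSO and 4 up in AA+2i against AA. Axin2, which encodes a scaffold of the beta-catenin destruction complex, rose by 5.54 on the log2 scale (SE 0.53, adjusted p = 8.13e-05), from 0.140 ± 0.0800 TPM in DMSO to 6.76 ± 5.24 in 2i. Sp5, a transcription factor gene, rose by 5.37 (SE 0.72, adjusted p = 0.000611), the Wnt inhibitor gene Nkd1 by 3.49 (SE 0.40, adjusted p = 0.000243) and the ubiquitin ligase gene Rnf43 by 2.81 (SE 0.46, adjusted p = 0.00204).

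**Figure D4:**
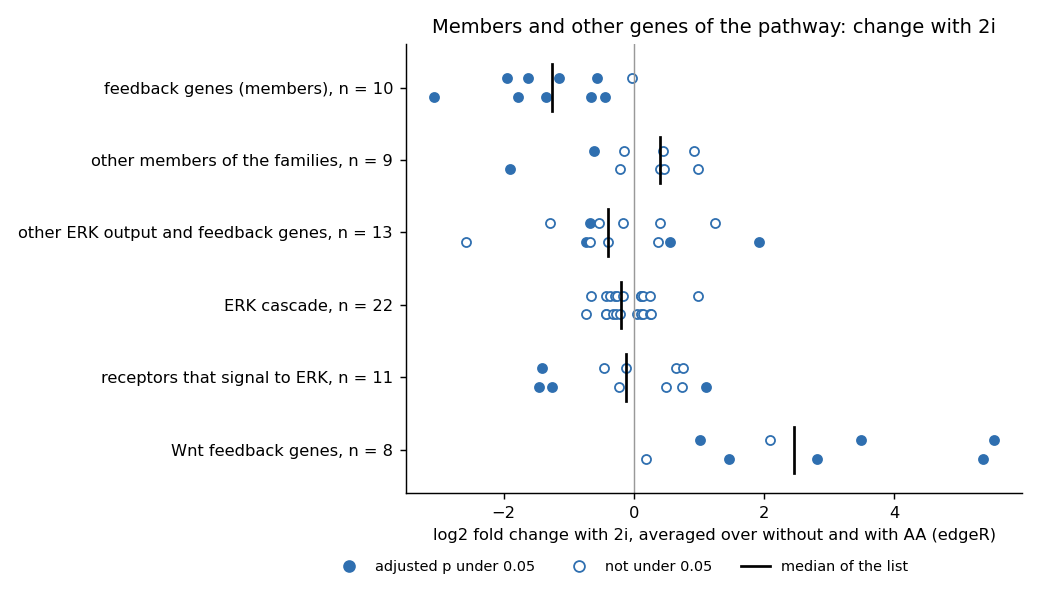
Averaged log2 fold change with 2i (horizontal axis; edgeR) for the 10 feedback genes and for 5 lists of other pathway genes. Each point is a gene, filled where the adjusted p was under 0.05, and the bar is the median of the list. The feedback genes have a median of -1.25, the cascade genes have no filled point, and 6 of the 8 Wnt feedback genes are filled on the right.

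Across the 12 libraries the feedback genes were compared with their own mean profile, as a description over points that share their treatment and their library. The Pearson correlation of each gene's log2 CPM with the mean of the other 9 was 0.97 for Dusp6, 0.95 for Spry1 and 0.94 for Spry4, then 0.85 for Spred2 and 0.83 for both Etv5 and Dusp4. It was 0.76 for both Spry2 and Etv4, 0.72 for Spred1 and -0.17 for Dusp5. The genes outside the set whose profile was most like the mean of the 10 were Tns1 (0.976), Calcr (0.975), Slc35d3 (0.973), Tph1 (0.969) and St8sia2 (0.968). Most like Dusp6 itself were Slc35d3 (0.991), Rab27b (0.985), Tph1 (0.983), Tac2 (0.982) and Gbp9 (0.981). Slc35d3 was at 13.5 ± 3.86 TPM in DMSO and 0.557 ± 0.1002 in 2i, and Tph1 at 34.4 ± 16.2 and 1.77 ± 0.317 TPM, so the 2i mean of each was a smaller share of its DMSO mean than for Dusp6.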

How the data were processed

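RNA of mouse pre-iPSCs treated for 48 h with DMSO, AA, 2i or AA+2i was sequenced from 3 biological replicates per condition (12 libraries). The authors trimmed and quality-filtered the reads, aligned them with Bowtie to RefSeq genes of mm9 and quantified them with RSEM 1.2.4 (tools and build per the labels' processing notes). The deposited expected counts are RSEM estimates per gene, not normalized and not always whole. The deposited TPM are scaled by transcript length and to a fixed sum within each library. One malformed TPM cell of AA C, in a gene that is not discussed, was recomputed from the FPKM that the authors deposited for that library. No pooled or fold change columns were used.

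After rounding, the expected counts went into edgeR 4.0.16 (R 4.3.3): RLE factors, quasi-likelihood F tests, a mean for each of the 4 conditions fitted over all 12 libraries and a filter that kept genes reaching 10 counts in 3 or more libraries. Benjamini-Hochberg adjustment was made over all 13400 tested genes, with a threshold of 0.05. The SE is the absolute log2 fold change over the root of the F statistic, and 95% intervals use the t quantile at the 8 residual degrees of freedom. EB-seq, which the study used, was not run. The averaged contrast takes the mean of 2i against DMSO and AA+2i against AA. Alternatives were TMM factors, DESeq2 1.42.0, limma 3.58.1 with trend on log2(TPM + 1) and on log2(TPM + 0.1), no filter, at least 10 counts in every library, models of only the groups compared, a replicate block, a GC correction (loess with a span of 0.4 on log2 CPM, prior count 2, entered as an offset; GC known for 99.28% of tested genes), both together, and leaving out each replicate letter. The fits were tested on simulated counts that held no replicate or GC effect. That test cannot show how the fits behave where such effects are present, and no result here rests on it.

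The 10 genes were all named. Of each list at most 4 genes were named, those with the largest averaged change among genes that passed, or the 2 most abundant where none passed. The genes, the lists and the averaged AA contrast were chosen with earlier results of these data known. Positions are from the GENCODE annotation of mm9 and upstream sequences from RefSeq (GRCm38.p6). One gene that the naming rule selected is not reported here.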

Additional observations from a re-analysis of the deposited data

How the results depend on the processing

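In 2i against DMSO, where 4 feedback genes passed, 7 passed with GC correction (11.7% of all tested genes), 8 with GC correction and the replicate block (24.9%), and 0 to 4 when a replicate was left out. In AA+2i against AA (5), 8 passed with DESeq2 (9.77% of all tested genes), 8 with GC correction (14.3%), 8 with GC correction and the block (27.6%), and 1 to 7 when a replicate was left out. In AA+2i against DMSO (5) the counts were 8 and 8 with GC correction without and with the block, when 19.2% and 36.3% of all tested genes passed against 8.34%. They were 2 to 6 when a replicate was left out, when 4.98%, 0.134% and 2.21% of all tested genes passed without A, B and C. For the averaged change (9) the counts were 4 to 8 when a replicate was left out. For AA against DMSO (0) DESeq2 and GC correction with the block gave 1 each (3.39% and 10.8% of all tested genes, the latter near 1 in 10). Leaving out A, B or C gave 0 there, when 0.239%, 0.00% and 0.0299% of all tested genes passed. For AA+2i against 2i (1) GC correction with the block gave 2 (10.8% of all tested genes, against 0.910%). Leaving out A, B or C gave 0 here, when 0.0896%, 0.00% and 0.00% of all tested genes passed. The direction of the 9 genes other than Dusp5 was below 0 in 342 of 342 alternative values of the 3 comparisons with 2i. Dusp5 turned in sign. In 2i against DMSO it was at -0.21 with GC correction, -0.19 with GC correction and the block, and between -0.29 (without C) and 0.63 (without B) when a replicate was left out. In AA+2i against AA it was at 0.041 and 0.11 with limma on log2(TPM + 1) and log2(TPM + 0.1), and between -0.69 (without A) and 0.34 (without B). The averaged change was 0.041 and 0.093 with limma, and between -0.33 (without A) and 0.48 (without B). The cause was not tested.

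The replicate letters were checked as pairs: deviations of same-letter libraries from their condition means correlated between -0.59 and 0.89 (mean 0.40), 15 of 18 pairs were above 0.1, and 11 of 12 libraries correlated best with their own letter. The pairs not above 0.1 were those of AA+2i B with DMSO B (-0.59), with AA B (-0.54) and with 2i B (0.067). AA+2i B correlated instead with replicate A libraries, at 0.69 with DMSO A, 0.77 with AA A and 0.76 with 2i A. The cause of this was not tested. Since not every pair was above 0.1, the letters were not taken to pair the samples. That choice does not show that the letters carried no replicate effect. With the replicate block, 7 feedback genes passed in 2i against DMSO, 8 in AA+2i against AA and 1 in AA against DMSO, when 13.3%, 14.9% and 4.43% of all tested genes passed. Spred1 (edgeR adjusted p = 0.00144 and 0.000652) and Etv4 (0.0312 and 0.0176) passed in both single comparisons with 2i. Dusp5 was at 0.31 in AA+2i against AA and 0.24 in the averaged change. Over all tested genes the block called 4323 in the averaged contrast and GC correction 3467, both together 5603, the fit without either 1778 and at least 10 counts in every library 1215. TPM with limma moved the median of all tested genes to -0.14 in the averaged contrast, against which Dusp6 and the other genes should be read. Over all tested genes 2i against DMSO called 592, against 1099 with DESeq2, 1782 with the block, 1563 with GC correction, 366 with at least 10 counts in every library and 187 with only those groups. AA+2i against AA called 817, against 1309, 1992, 1919, 507 and 447 in the same settings. Spry2, Spred2 and Etv5, at -0.50 to -0.52 in 2i against DMSO, did not pass by edgeR without the block or GC correction, which does not show that they did not change. Spry2 passed with the block (adjusted p = 0.0351), Etv5 with DESeq2 (0.049) and GC correction (0.0332), and Spred2 with GC correction and the block (0.00815).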
